A study of Mus musculus with 8 samples.

Results

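Fibronectin and the matricellular proteins were represented by 9 genes, namely Fn1 (fibronectin), Tnc (tenascin C), Postn (periostin), Sparc (osteonectin), Thbs1 and Thbs2 (thrombospondins), Ctgf (now Ccn2), Cyr61 (now Ccn1) and Spp1 (osteopontin). The members are all noncontrol probes that carry one of these names in the scanner files. That gave 11 probes, 2 each for Tnc and Sparc and 1 for each other gene, so that 9 of the 23830 genes or transcripts tested belong to the group. The samples were wire-injured carotid arteries of mice on a western-type diet, taken 14 days after the injury, when the neointima, the cell and matrix layer inside the injured vessel, is forming. Of the 8 arrays, 4 came from miR-126+/+/ApoE-/- mice, the controls, and 4 from miR-126-/-/ApoE-/- mice. All 8 animals lacked ApoE, were female and 6 weeks old per the labels, and had a mixed genetic background. No uninjured artery and no other time point was analysed here, so the values describe genotype within injured vessels.

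Matricellular proteins are secreted into the extracellular matrix but act mainly as signals to cells, through integrins, syndecans and other receptors, rather than as structural fibres. Many are low in the resting adult artery wall and are made by smooth muscle cells, fibroblasts and macrophages after injury. Fibronectin is a structural glycoprotein that cells assemble into fibrils, and it offers binding sites for integrins and for several of the matricellular proteins. miR-126 is an endothelial microRNA encoded in an intron of Egfl7.

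A mature strand of the microRNA that separates the genotypes, mmu-miR-126a-3p, is shown first, from RefSeq on GRCm38.p6 (chr2:26591402-26591423, plus strand). The seed of this strand, bases 2 to 8, is in capitals. The next 2 sequences are the 60-base Tnc probes, given because they measured the same gene at places far apart; their positions are described with the Tnc values.
mmu-miR-126a-3p: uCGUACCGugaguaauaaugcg
Tnc A_52_P355169: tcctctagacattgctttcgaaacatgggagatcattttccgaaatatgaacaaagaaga
Tnc A_55_P2421597: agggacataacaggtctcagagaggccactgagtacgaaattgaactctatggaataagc

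Every value below is the log2 of a probe's processed signal relative to the 75th percentile of its array, so a value of 0 is the level of that percentile. Differences are miR-126-/- minus miR-126+/+. Levels of different probes are not on a common scale and were not compared between genes. Within a gene they served only to pick the probe of highest mean and, as an alternative, to average its probes. The arrays lay on 1 slide and were read on 1 scan day, with every miR-126+/+ sample in slide row 1 and every miR-126-/- sample in row 2, so an effect of position on the slide and one of genotype cannot be told apart. Between 55.9% and 61.5% of probes were well above background on an array, and arrays correlated with each other at 0.959 to 0.987 across probes. Smooth muscle markers were well above background on all 8 arrays, with Acta2 at 7.51 in miR-126+/+ and 7.65 in miR-126-/-. The microRNA itself was not analysed here. The probe of its host gene Egfl7 read between 5.76 and 6.13 in miR-126+/+ and between 6.30 and 6.69 in miR-126-/-, a difference of 0.49 ± 0.13 (limma adjusted p = 0.275), and it checks no label because it does not measure the microRNA.

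At this time point no gene of the group changed between genotypes by the adjusted threshold. The largest differences were those of Fn1 and both Tnc probes, at a fitted 1.70-fold, 1.62-fold and 1.64-fold lower in miR-126-/-, while Postn, Thbs1, Thbs2, Ctgf, Cyr61 and Spp1 had differences smaller than their standard errors. The 2 Sparc probes pointed in opposite directions. All 11 probes were well above background on all 8 arrays and were tested.

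Over all 32484 probes tested, 12 passed an adjusted p of 0.05 in limma, which is 0.0369% in either direction and 0.0185% in each direction. None of the 11 member probes did. At an unadjusted p under 0.05 the share was 9.85% of all probes (6.33% higher and 3.52% lower), and 2 of the 11 member probes reached it, Fn1 and Sparc A_55_P2046812, both lower in miR-126-/-. The genotypes did not overlap for 5.95% of all probes (3.68% higher and 2.27% lower) and for none of the member probes. Taking the probe of highest mean for each gene, 5 of the 9 genes had a difference below 0 and 4 above. Over all 23830 genes 11500 were lower and 12330 higher. The median difference was -0.09 against 0.01 over all genes. The count by sign includes Sparc and Cyr61, for which no direction is given below. It also includes Postn, Thbs1, Thbs2 and Spp1, whose sign turned when certain single arrays were left out.

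**Figure D1:**
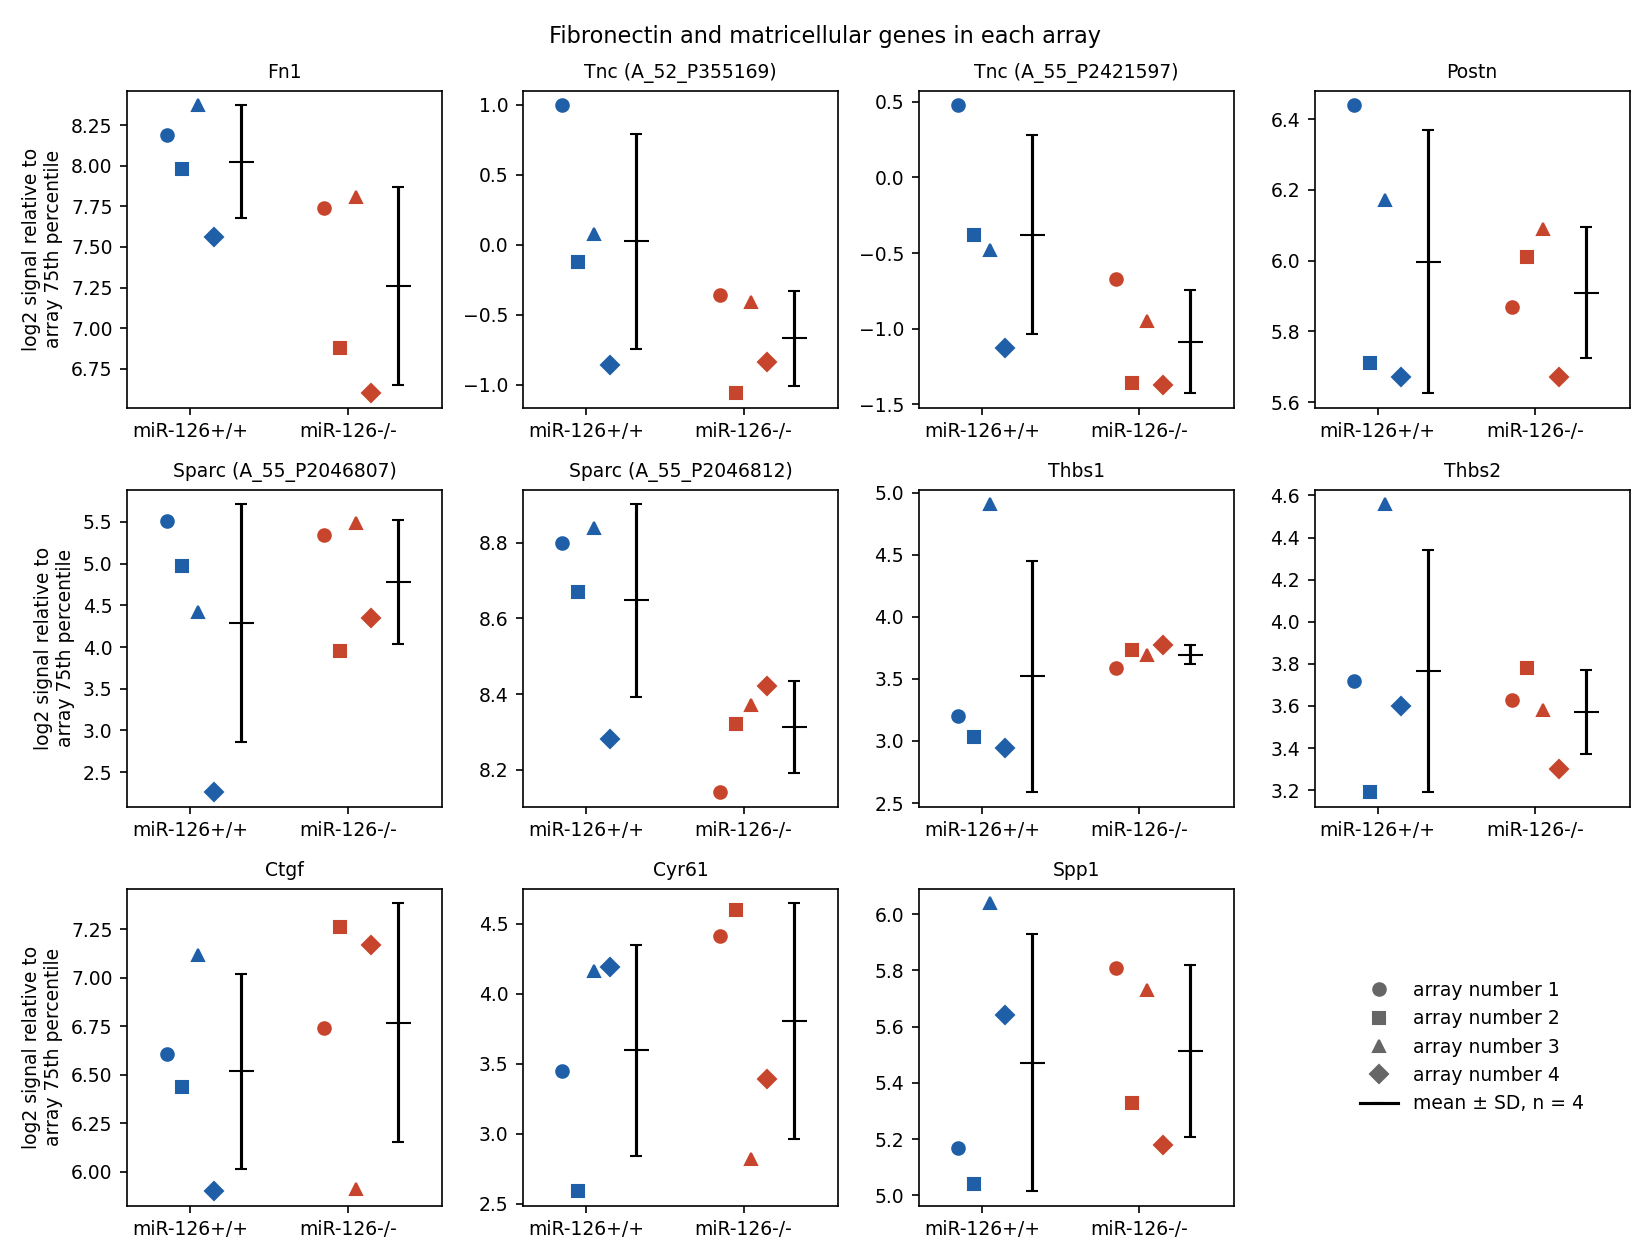
Log2 signal of each member probe relative to its array's 75th percentile, with 1 point per array, the miR-126+/+ arrays and the miR-126-/- arrays side by side and a bar at each genotype mean. The genotypes overlap for all 11 probes. Fn1 and the Tnc probes have the largest differences between genotype means, lower in miR-126-/-, and Thbs1 has a single high miR-126+/+ array at 4.91.

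Fibronectin is the provisional matrix on which smooth muscle cells migrate after injury. The Fn1 probe lies at chr1:71632116-71632175 on the minus strand of build mm9, the build of all probe positions here. Its signal was 8.19, 7.98, 8.37 and 7.56 on miR-126+/+ arrays 1 to 4, and 7.74, 6.88, 7.81 and 6.60 on miR-126-/- arrays 1 to 4. None of the miR-126-/- arrays exceeded the miR-126+/+ median and 2 of them, arrays 2 and 4, lay below the lowest miR-126+/+ array, but array 4 of the controls fell among the miR-126-/- values. The means were 8.02 ± 0.35 and 7.26 ± 0.61 (SD, n = 4 each). The difference was -0.77 ± 0.31 (SE; 95% interval -1.49 to -0.05; limma unadjusted p = 0.0391, adjusted p = 0.477). Without miR-126-/- array 4 it was -0.55. The Fn1 probe varied within a genotype with an SD of 0.50, above that of 85% of the probes tested. In these bulk samples, fewer cells of a type and less RNA per cell cannot be told apart.

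Tenascin C is a large glycoprotein that appears in injured and remodelling vessel wall and interferes with cell spreading on fibronectin. The probe A_52_P355169 covers chr4:63674248-63675011 on the minus strand, a span of 764 bases for 60 probe bases, so its sequence crosses an intron. It read 1.0, -0.12, 0.08 and -0.86 in miR-126+/+ arrays 1 to 4 and -0.36, -1.06, -0.41 and -0.84 in miR-126-/- arrays 1 to 4. Control array 1 was the highest of all and control array 4 lay among the lowest, so the genotypes overlapped. The means were 0.02 ± 0.76 and -0.67 ± 0.34, and the difference was -0.69 ± 0.37 (95% interval -1.54 to 0.16; limma adjusted p = 0.618). Array 1 of the controls carried much of this: without it the difference was -0.37, and without control array 4 it was -0.99.

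The second Tnc probe, A_55_P2421597, lies at chr4:63643728-63643787, with its end coordinate 31224 bases from that of the first probe. It read 0.48, -0.38, -0.48 and -1.13 in miR-126+/+ and -0.67, -1.36, -0.95 and -1.37 in miR-126-/-. The arrays took nearly the same order as with the first probe, again with control array 1 highest and control array 4 lowest of its genotype. The difference was -0.71 ± 0.33 (95% interval -1.47 to 0.05; limma adjusted p = 0.547), within 0.02 of the first probe. Leaving out control array 1 brought it to -0.43 and leaving out control array 4 to -0.96. The probes share their samples and their gene and are not independent measurements of the genotype difference.

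Periostin is a matricellular protein of smooth muscle cells and fibroblasts that binds integrins and helps collagen fibrils form. The Postn probe (chr3:54194840-54194899, plus strand) read 6.44, 5.71, 6.17 and 5.67 in miR-126+/+ and 5.87, 6.01, 6.09 and 5.67 in miR-126-/-. The miR-126-/- arrays lay inside the control range, except that array 4 equalled the lowest control to 2 decimals. The difference was -0.09 ± 0.19 (95% interval -0.53 to 0.36; limma adjusted p = 0.926), and without control array 1 it was 0.06. The interval leaves out differences beyond 0.53 in size but does not show that the genotypes are equal.

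Osteonectin, the product of Sparc, binds collagen and limits cell adhesion. Its 2 probes lie at chr11:55208939-55208998 (A_55_P2046812) and chr11:55208003-55208061 (A_55_P2046807), both on the minus strand, with end coordinates 937 bases apart. They gave different pictures of the same samples.

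Probe A_55_P2046812 read 8.80, 8.67, 8.84 and 8.28 in miR-126+/+ and 8.14, 8.32, 8.37 and 8.42 in miR-126-/-. Control arrays 1 to 3 lay above every miR-126-/- array, and control array 4 lay among them. The means were 8.65 ± 0.26 and 8.31 ± 0.12, and the fitted level was 1.26-fold lower in miR-126-/- (difference -0.33 ± 0.14; 95% interval -0.66 to -0.01; limma unadjusted p = 0.0456, adjusted p = 0.496). When single arrays were left out the difference ran from -0.46 to -0.27. It was -0.46 without control array 4 (limma adjusted p = 0.151) and -0.27 without control array 3 (limma adjusted p = 0.583).

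Probe A_55_P2046807 read 5.51, 4.97, 4.42 and 2.26 in miR-126+/+ and 5.34, 3.95, 5.48 and 4.35 in miR-126-/-. Control array 4 stood far below the rest, and across all arrays the probe ranged 9.55-fold. Its SD within a genotype was 1.14, above that of 97.1% of the probes tested. The difference was 0.49 ± 0.70 (95% interval -1.12 to 2.11; limma adjusted p = 0.878) and turned to -0.18 without control array 4. The mean of the 2 Sparc probes gave a difference of 0.08, so no direction is reported for the gene.

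The thrombospondins Thbs1 and Thbs2 are trimeric glycoproteins that bind CD36, CD47 and integrins, and Thbs1 can activate latent transforming growth factor beta. The Thbs1 probe (chr2:117952585-117952644, plus strand) read 3.20, 3.03, 4.91 and 2.94 in miR-126+/+ and 3.59, 3.73, 3.69 and 3.77 in miR-126-/-. The 4 miR-126-/- arrays were close together and above 3 of the 4 controls, while control array 3 was the highest by far. The means were 3.52 ± 0.93 and 3.70 ± 0.08, with a difference of 0.18 ± 0.41 (95% interval -0.77 to 1.12; limma adjusted p = 0.93). Without control array 3 the difference was 0.64 ± 0.10, with a limma adjusted p of 0.149, and without control array 4 it was -0.02.

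The Thbs2 probe covers chr17:14804526-14805789 on the minus strand and crosses an intron. It read 3.72, 3.19, 4.56 and 3.60 in miR-126+/+ and 3.63, 3.78, 3.58 and 3.30 in miR-126-/-. Control array 3 was again the highest, and all miR-126-/- arrays lay within the control range. The difference was -0.20 ± 0.27 (95% interval -0.82 to 0.43; limma adjusted p = 0.874), and it was 0.07 without control array 3.

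Ctgf and Cyr61 are CCN family proteins, whose genes respond quickly to transforming growth factor beta, to serum and to the mechanically regulated coactivators Yap1 and Wwtr1. The Ctgf probe (chr10:24318281-24318340, plus strand) read 6.61, 6.44, 7.12 and 5.90 in miR-126+/+ and 6.74, 7.26, 5.91 and 7.17 in miR-126-/-. Both genotypes spread over more than 1 log2 unit, with control array 4 and miR-126-/- array 3 the lowest. The difference was 0.25 ± 0.35 (95% interval -0.56 to 1.06; limma adjusted p = 0.874) and ran from 0.04 to 0.54 when single arrays were left out.

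The Cyr61 probe (chr3:145310187-145310246, minus strand) read 3.45, 2.59, 4.16 and 4.19 in miR-126+/+ and 4.41, 4.60, 2.82 and 3.39 in miR-126-/-. The lowest array was control array 2 and the next was miR-126-/- array 3. The difference was 0.21 ± 0.49 (95% interval -0.93 to 1.35; limma adjusted p = 0.932). It was -0.13 without control array 2 and -0.06 without miR-126-/- array 2, so no direction is given.

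Osteopontin, the product of Spp1, is a secreted phosphoprotein made by macrophages and by smooth muscle cells that have left the contractile state, and it is a ligand of integrins and CD44. The Spp1 probe (chr5:104868502-104868561, plus strand) read 5.17, 5.04, 6.04 and 5.64 in miR-126+/+ and 5.81, 5.33, 5.73 and 5.18 in miR-126-/-. All miR-126-/- values lay inside the control range. The difference was 0.04 ± 0.25 (95% interval -0.53 to 0.61; limma adjusted p = 0.973), and it took either sign, from -0.11 to 0.23, when single arrays were left out.

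**Figure D2:**
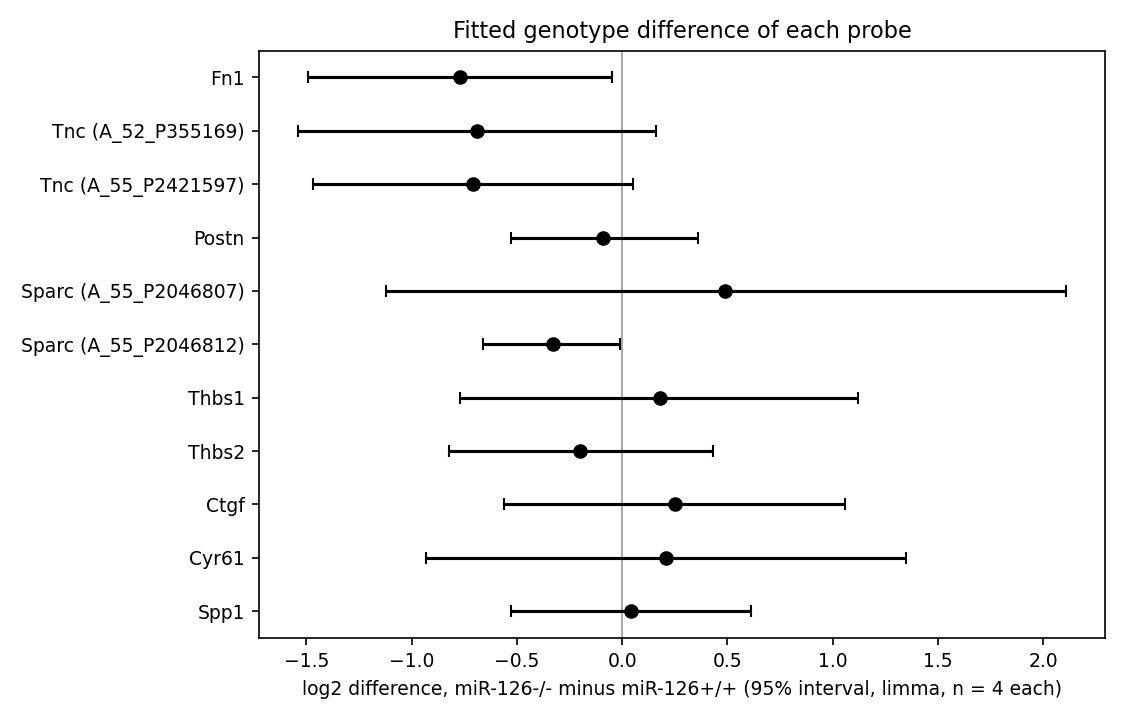
Fitted difference of each member probe, miR-126-/- minus miR-126+/+ in log2 units, as a point with its 95% interval from limma (n = 4 each). The intervals of Fn1 and Sparc A_55_P2046812 end just below 0, at -0.05 and -0.01, and the other 9 include 0.

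The control arrays also differed among themselves. Array 4 had the lowest miR-126+/+ value for 8 of the 11 probes, covering Fn1, Tnc, Postn, Sparc, Thbs1 and Ctgf, and array 3 had the highest for 6 of the 11. For Fn1, both Tnc probes and Sparc A_55_P2046812, control array 4 was the only control within the range of the miR-126-/- arrays.

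Array 4 was also the control with the highest adipocyte marker level. The mean of 8 adipocyte markers (Adipoq, Plin1, Cfd, Fabp4, Retn, Cidec, Lep and Car3), each centred over the arrays, was -1.02, -0.35, -1.26 and 0.22 in miR-126+/+ and 0.05, 0.64, 0.66 and 1.06 in miR-126-/-. All 8 markers had higher means in miR-126-/-, with a median difference of 1.25, and limma called none of them after adjustment (7 of 8 were under 0.05 before it). Adipoq averaged 4.03 in miR-126+/+ and 5.25 in miR-126-/-. With this mean as a covariate in the limma fit, the difference of Fn1 was 0.03 ± 0.37, that of the Tnc probes 0.25 ± 0.43 and 0.11 ± 0.40, and that of Sparc A_55_P2046812 was -0.11 ± 0.22. The covariate moved all 11 member probes upward and did not bring all of them nearer to 0. In the same fit Sparc A_55_P2046807 was at 2.17 ± 0.88, Thbs1 at 1.01 ± 0.57, Ctgf at 0.77 ± 0.55 and Cyr61 at 0.61 ± 0.82. Postn was at 0.37 ± 0.24, Thbs2 at 0.41 ± 0.36 and Spp1 at 0.38 ± 0.39, and the limma adjusted p of every member rounded to 1. The part of adipocyte content in these differences was not tested.

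**Figure D3:**
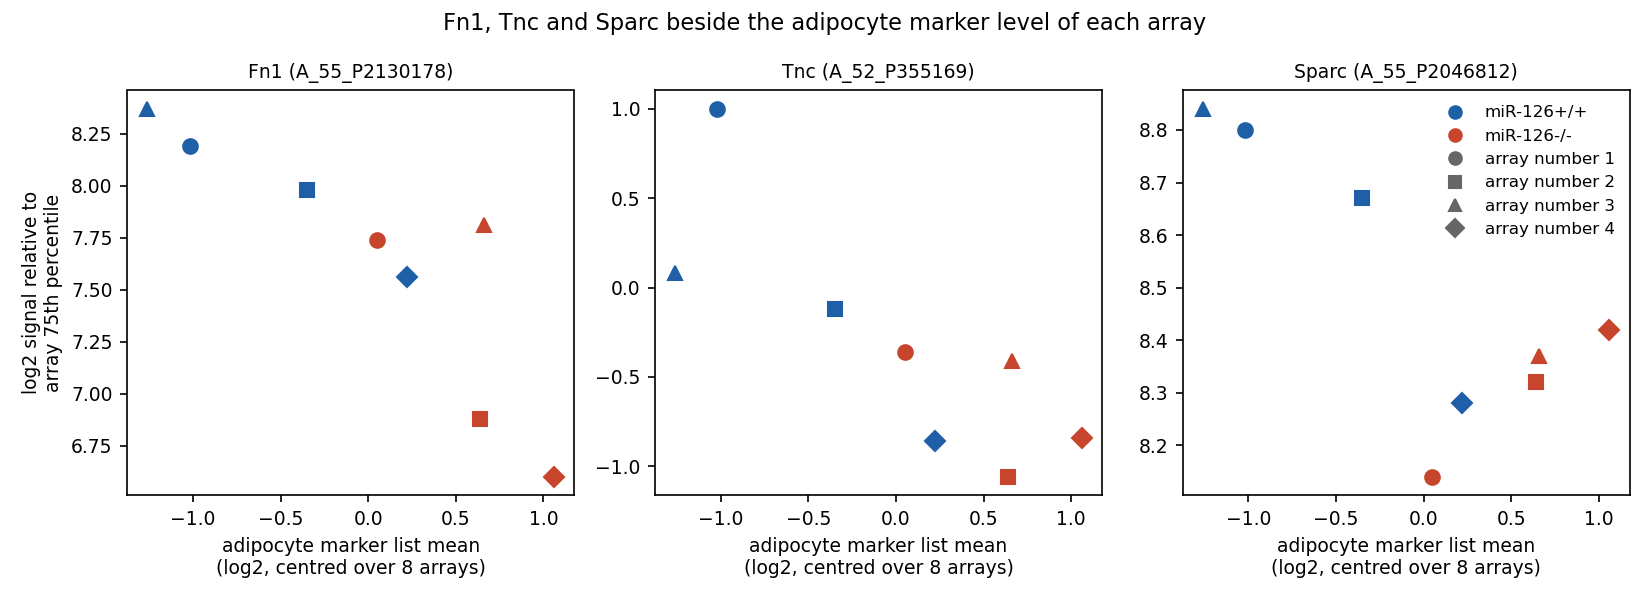
Log2 signal of the Fn1 probe, of Tnc A_52_P355169 and of Sparc A_55_P2046812 on the vertical axes against the adipocyte marker mean of each array (log2, centred over the 8 arrays), with colour for genotype and shape for array number. Control arrays 1 and 3, with marker means of -1.02 and -1.26, have the highest 2 values of Fn1 and of Sparc, and of Tnc array 1 has the highest.

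The other cell type marker lists differed less between genotypes in their mean, although skeletal muscle markers varied more between arrays than adipocyte markers. Smooth muscle markers were higher in miR-126-/- for 7 of 7 genes, with list means of -0.39 to -0.00 in miR-126+/+ and 0.00 to 0.46 in miR-126-/-. Endothelial markers were higher for 6 of 6 genes, with means of -0.24 to -0.03 and -0.09 to 0.26. Macrophages are one source of Spp1, and their markers were split 4 and 4, with means of -0.21 to 0.32 and -0.12 to 0.25. Fibroblast markers were split 3 and 3, with means of -0.16 to 0.31 and -0.12 to 0.01. Among them Dcn, the collagen-binding proteoglycan decorin, was the only 1 of 6 without overlap of genotypes (difference -0.83 ± 0.20; limma adjusted p = 0.225). Over all genes tested the genotypes did not overlap for 6.29%. The other fibroblast markers had differences from -0.17 for Lum to 0.12 for Col1a2. Skeletal muscle markers ranged from -2.26 to 3.22 in miR-126+/+ and from -1.96 to 3.39 in miR-126-/-, highest on control array 2 and miR-126-/- array 1. Schwann cell markers ran from -1.27 to 0.50 and from -0.19 to 0.76, and cartilage and tendon markers from -0.51 to 0.23 and from -0.11 to 0.33. Of 4 thyroid markers 2 were tested, with means of -0.57 to 0.02 and -0.20 to 0.65. The part of these cells in the member values was not tested.

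The wider family of the members comprised 20 genes, among them other thrombospondins, tenascins, CCN proteins, SPARC relatives, fibulins and vitronectin. Of the 16 tested, 11 were lower and 5 higher in miR-126-/-, against 11500 lower and 12330 higher over all genes. The median was -0.19 against 0.01 over all genes. By limma 0 were called after adjustment, and 1 was below an unadjusted p of 0.05, a share not above the 10.1% of all genes. That gene was Thbs4, a thrombospondin of muscle and tendon matrix (difference -1.08 ± 0.46; limma adjusted p = 0.494). Vtn, the integrin ligand vitronectin, followed at -0.51 ± 0.24, Tgfbi, an adhesion protein related to periostin, at -0.41 ± 0.20, and Smoc2, a SPARC relative, at -0.36 ± 0.19. The mean of the 16 genes was 0.21, 0.02, 0.16 and 0.04 on the miR-126+/+ arrays and -0.10, -0.08, -0.01 and -0.24 on the miR-126-/- arrays. The lowest control mean, 0.02, lay just above the highest miR-126-/- mean, -0.01, and no test was made of these means. The median was -0.05 without control array 3 and -0.03 with the adipocyte mean as a covariate. Tnr, Wisp3, Spock1 and Spock3 did not pass the filter on dim probes.

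The receptors of these proteins, a list of 19 integrins, syndecans, scavenger receptors and related genes, did not lean one way. The 18 tested comprised 10 higher and 8 lower genes, and their median difference was 0.03. By limma 0 were called after adjustment, and 2 were below an unadjusted p of 0.05. Those were Cd36, a receptor of Thbs1 that adipocytes and macrophages also make (0.63 ± 0.22; limma adjusted p = 0.405), and Itga3, an integrin subunit for laminins and thrombospondin (0.32 ± 0.13; limma adjusted p = 0.476). Itga3 was the only one of the 18 whose genotypes did not overlap. Over all genes tested the genotypes did not overlap for 6.29% and the unadjusted p was under 0.05 for 10.1%, so both counts of receptors are near the background. Stab1, a scavenger receptor that binds Sparc, differed by 0.24 ± 0.12, and Itgb8, an integrin subunit that activates latent transforming growth factor beta, by -0.80 ± 0.43. The main fibronectin receptor subunits read 0.68 and 0.51 for Itga5 and 3.29 and 3.32 for Itgb1 in miR-126+/+ and miR-126-/-, with differences of -0.16 ± 0.17 and 0.03 ± 0.12. Itgb6 did not pass the filter.

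Of 14 genes upstream of the members or induced with them, 7 were higher and 7 lower, and the median difference was 0.01. By limma 0 were called after adjustment, and 0 were below an unadjusted p of 0.05. Amotl2, an early target of Yap1, differed by 0.36 ± 0.17. Ankrd1, another such target, differed by 0.99 ± 0.64, with a within-genotype spread too wide to separate the groups. Wwtr1 differed by 0.16 ± 0.10 and Tead1, the DNA-binding partner of both coactivators, by -0.16 ± 0.09. The transforming growth factor genes Tgfb1, Tgfb2 and Tgfb3 had differences of -0.06, -0.07 and -0.09.

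The genes whose arrays followed each member most closely are given as a description. With 8 arrays and 23830 genes or transcripts, high coefficients arise readily, and nothing about shared control was read from them. Ctgf was followed by Ubxn7 (Pearson r = 0.968). Fn1 was followed by Ttc39c (0.985) and Alox5ap (0.967), the latter an activator of leukotriene synthesis in myeloid cells. Tnc was followed by Myef2 (0.970), Postn by Prkca (0.971) and Ipo7 (0.966), and Sparc A_55_P2046812 by Ogg1 (0.967) and Ints13 (0.967). The partners of Thbs1 were Cd200 and Galnt2 (both 0.986), and those of Thbs2 were Tgif1 (0.982) and Capn6 (0.968). Cyr61 was followed by Dvl2 (0.972) and Clk4 (0.963), and Spp1 by Stil (0.970) and Lclat1 (0.939). None of these 16 genes passed the adjusted threshold in limma, with adjusted p-values from 0.304 to 0.999.

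**Figure D4:**
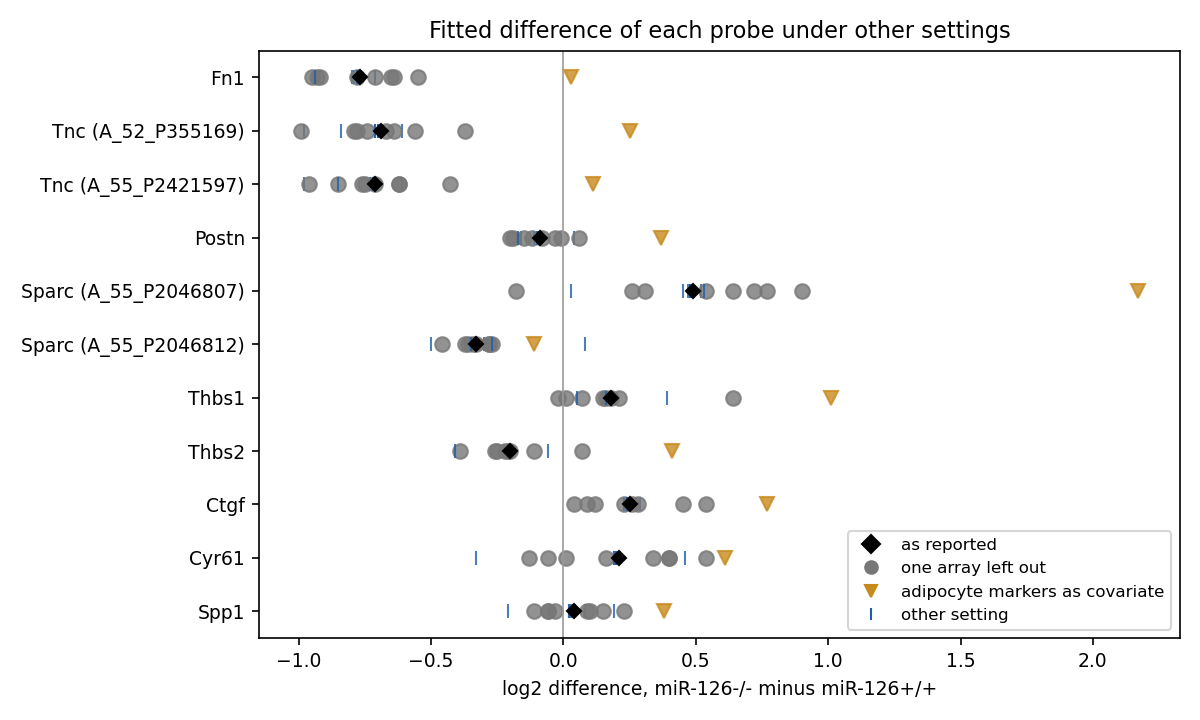
Difference of each member probe, miR-126-/- minus miR-126+/+ in log2 units, as reported (diamond), with 1 array left out (grey points), with the adipocyte marker mean as a covariate (triangle) and under the other settings (ticks). Fn1 and Tnc stay below 0 except with the covariate, while Postn, Sparc A_55_P2046807, Thbs1, Thbs2, Cyr61 and Spp1 take both signs. In the row of Sparc A_55_P2046812 the only value above 0 is the average of both Sparc probes, not a value of that probe.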

How the data were processed

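Per the labels, 4 miR-126+/+ and 4 miR-126-/- samples were hybridised in 1 colour from 100 ng of total RNA, and the group sizes are numbers of animals per the series design. The submitters' processing notes name Agilent Feature Extraction 10.7.3.1. The deposited scanner files give background-subtracted processed signals, an intensity on a linear scale. The authors' deposited table repeats these intensities, unscaled between arrays (median log2 difference 0 on each array; column medians 41.7 to 57.5). Control spots and outlier spots were left out and spots of a probe averaged. The log2 signal minus the array's 75th percentile (518.2 to 736.1) was computed from these deposited intensities. Probes well above background on at least 3 of 4 arrays of a genotype entered (32484 of 55681); no member probe was saturated. Names came from the files, updated through RefSeq where an accession matched (26413 probes, 47.4%).

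Genotypes were compared with limma 3.58.1 (R 4.3.3; lmFit and eBayes, 6 residual degrees of freedom), two-sided, with Benjamini-Hochberg adjustment over all 32484 probes and a threshold of 0.05. On simulated data with 200 changed probes, the procedure recovered 47.5% of those changed by 1 log2 unit and 81% of those changed by 2. Smaller changes were not simulated. Files were read and figures drawn with Python 3.11.15, pandas 2.3.3 and matplotlib 3.10.9. A list gene is its tested probe of highest mean. Named genes are all members, up to 4 genes per list with the smallest unadjusted p, and the 2 genes most like each member, of which 1 each for Ctgf and Tnc is not reported here; Itga5, Itgb1, the Tgfb genes and Dcn were chosen after their values were seen. The members and lists were chosen with earlier results of these data known. The number of arrays limits the precision. No spot of a member lies in the dim area of miR-126-/- array 4. Alternatives were other background corrections, scalings, filters, probe summaries, variance models, array weights, a replicate block, marker covariates and leaving out arrays.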

Additional observations from a re-analysis of the deposited data

Results flagged for a closer look

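The Thbs1 value of miR-126+/+ array 3, 4.91, stood apart from the other 3 controls, the nearest of which was 3.20. The gap was 0.866 of the range of the 4 arrays, past the 95% critical value of Dixon's test for 4 samples. Of 22 probe and genotype groups checked, 1 passed that value, and chance passes about 1 in 20. Thbs2 was highest on the same array, at 4.56.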

How the results depend on the processing

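Over 24 settings other than the one reported, 241 of 260 member differences kept their direction and 19 turned. The 19 include the average of both Sparc probes, which was set against probe A_55_P2046812. In limma 0 of 260 passed the adjusted threshold, and as reported 2 of the 11 had an unadjusted p under 0.05. With the adipocyte covariate the differences were 0.03 for Fn1, 0.25 and 0.11 for Tnc, 0.37 for Postn and 0.41 for Thbs2, all turned, and the other members also moved upward, Sparc A_55_P2046807 to 2.17, Sparc A_55_P2046812 to -0.11, Thbs1 to 1.01, Ctgf to 0.77, Cyr61 to 0.61 and Spp1 to 0.38. Normexp background correction gave 0.04 for Postn, 0.08 for Spp1 and -0.50 for Sparc A_55_P2046812, and averaging probes gave 0.08 for Sparc. Array weights gave 0.03 for Sparc A_55_P2046807, -0.16 for Postn, 0.39 for Thbs1, -0.06 for Thbs2, 0.46 for Cyr61 and 0.19 for Spp1. Without miR-126+/+ array 2 and miR-126-/- array 1 together, which were left out after seeing the data, Cyr61 was -0.33, Spp1 -0.21, Postn -0.17, Thbs1 0.05, Thbs2 -0.41 and the family median -0.29. Leaving out single arrays gave ranges of -0.20 to 0.06 for Postn, -0.18 to 0.90 for Sparc A_55_P2046807, -0.02 to 0.64 for Thbs1, -0.39 to 0.07 for Thbs2, -0.13 to 0.54 for Cyr61 and -0.11 to 0.23 for Spp1. The cause of these turns was not tested. The family median ran from -0.25 to -0.05 over single arrays left out and was -0.03 with the adipocyte covariate; the receptor median ran from -0.04 to 0.12, and was 0.10 with array weights and 0.12 with the covariate.

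The 12 probes called over the whole array became 34 with normexp, 23 with 1 probe per gene, 55 with array weights and 1 with the skeletal muscle covariate. Calls fell to 0 with the adipocyte covariate (limma; 1493 at an unadjusted p under 0.05) and to 0 without the 2 arrays (2618). Leaving out single arrays gave 0 to 51, with 51 without miR-126+/+ array 4, 7 without array 1, 2 and 3 without miR-126-/- arrays 1 and 3, and 0 without miR-126+/+ array 2 (limma; 2692 at an unadjusted p under 0.05) or miR-126-/- array 2 (2437). With the replicate block, 0 were called (limma; 2888 at an unadjusted p under 0.05) and Fn1 was at -0.77 ± 0.15 with an adjusted p of 0.283. The labels state no shared origin for arrays of the same replicate number. Those arrays did share a slide column, so the replicate block was also a block of slide column. Deviations of same-numbered arrays correlated at 0.18, -0.29, -0.04 and -0.00. The causes were not tested. On all 8 arrays the 11 member probes read well above background.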
